A study of Homo sapiens with 7 samples.

Results

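The 10 genes described here control how many mitochondria a cell builds and how it senses and burns fuel: the coactivators PPARGC1A and PPARGC1B, the nuclear regulators ESRRA and NRF1, the mitochondrial transcription factors TFAM, TFB1M and TFB2M, the AMPK catalytic subunit PRKAA1, its upstream kinase STK11 and the fatty acid importer CPT1A. They were set by name, out of 19970 protein-coding genes on chromosomes 1 to 22 and X, and every called interval overlapping the RefSeq span of a member or the 25 kb on either side was taken. All 10 were found. In KARPAS-45 these windows held 44 of 42911 RUNX2 peaks and 92 of 63265 H3K27ac regions, and in PER-117 they held 35 of 21027 RUNX2 peaks and 67 of 53263 H3K27ac regions. A RUNX2 peak lay in the window of 10 of 10 members for KARPAS-45 and 9 of 10 for PER-117, against 79.5% and 64.3% of all genes. An H3K27ac region lay in the window of 9 of 10 members for each line, against 78.8% and 75.4%. The peaks came from chromatin immunoprecipitation with sequencing in 2 cell lines of T-cell acute lymphoblastic leukemia. KARPAS-45, known to carry a KMT2A rearrangement, was grown with 20% fetal bovine serum, and PER-117 with 10%. No treatment or knockdown is given in the labels for either line, and each line is a single cultured leukemia. RUNX2, a factor of the Runt family known above all for bone formation, was precipitated with the D1H7 antibody, and H3K27ac, a histone mark of active promoters and enhancers, with ab4729. There was 1 library per line and antibody, so there is no replicate error, the lines could not be tested against each other, and every difference below is one between libraries. The serum, the cells and the libraries cannot be told apart as the source of a difference.

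Mitochondrial biogenesis depends on nuclear genes. PGC-1 coactivators, encoded by PPARGC1A and PPARGC1B, work through DNA-binding partners such as NRF1 and the estrogen-related receptor ESRRA, and these raise the factors that copy and transcribe mitochondrial DNA, TFAM, TFB1M and TFB2M. AMPK is switched on by the kinase STK11 (LKB1) when ATP is short and favours fat oxidation, for which CPT1A is the entry step. In mouse thymocytes, loss of LKB1 impairs survival and development.

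RefSeq promoter sequences (GRCh38.p14, 250 bases before to 50 after an annotated start) matched 9 of the 10 genes, all but NRF1, with 10 entries because PPARGC1A has 2. A RUNX2 summit, the point of highest signal in a peak, fell inside the promoter window of 5 genes in KARPAS-45 (ESRRA, TFAM, TFB1M, TFB2M and STK11), against 3 genes in PER-117 (TFAM, TFB1M and TFB2M). That is 5 and 3 of the 10 entries, where 20.9% and 9.84% of all 34789 RefSeq promoter windows held a summit. The 5 windows are shown because they hold a summit in at least 1 line. They lie at chr10:58385160-58385459, plus strand (TFAM), chr6:155314435-155314734, minus strand (TFB1M), chr1:246566212-246566511, minus strand (TFB2M), chr19:1205528-1205827, plus strand (STK11) and chr11:64305274-64305573, plus strand (ESRRA), and each is written 5′ to 3′ along its gene. Capitals mark matches to TGTGGT or TGCGGT, the core letters of RUNX sites, searched on both strands.
TFAM: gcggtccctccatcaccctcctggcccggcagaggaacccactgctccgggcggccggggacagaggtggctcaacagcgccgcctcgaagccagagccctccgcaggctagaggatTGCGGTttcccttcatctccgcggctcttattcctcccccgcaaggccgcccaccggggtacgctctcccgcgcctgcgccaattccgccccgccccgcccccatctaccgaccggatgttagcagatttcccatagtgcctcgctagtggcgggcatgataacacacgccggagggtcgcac
TFB1M: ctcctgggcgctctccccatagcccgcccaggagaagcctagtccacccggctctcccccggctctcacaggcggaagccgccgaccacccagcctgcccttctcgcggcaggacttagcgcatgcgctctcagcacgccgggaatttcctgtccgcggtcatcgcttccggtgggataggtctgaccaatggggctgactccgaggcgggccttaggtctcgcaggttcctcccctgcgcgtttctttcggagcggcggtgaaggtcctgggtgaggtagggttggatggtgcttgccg
TFB2M: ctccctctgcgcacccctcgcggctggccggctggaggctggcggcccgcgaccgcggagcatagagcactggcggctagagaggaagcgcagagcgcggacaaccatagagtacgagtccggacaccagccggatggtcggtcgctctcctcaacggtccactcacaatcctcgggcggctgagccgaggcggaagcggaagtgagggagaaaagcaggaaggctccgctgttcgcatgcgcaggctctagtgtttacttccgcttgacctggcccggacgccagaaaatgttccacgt
STK11: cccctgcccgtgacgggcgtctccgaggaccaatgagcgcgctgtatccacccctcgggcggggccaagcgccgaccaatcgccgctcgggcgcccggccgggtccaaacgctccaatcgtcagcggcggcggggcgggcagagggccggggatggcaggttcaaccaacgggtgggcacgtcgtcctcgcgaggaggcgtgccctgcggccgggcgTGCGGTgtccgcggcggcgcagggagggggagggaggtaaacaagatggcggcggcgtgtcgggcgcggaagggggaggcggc
ESRRA: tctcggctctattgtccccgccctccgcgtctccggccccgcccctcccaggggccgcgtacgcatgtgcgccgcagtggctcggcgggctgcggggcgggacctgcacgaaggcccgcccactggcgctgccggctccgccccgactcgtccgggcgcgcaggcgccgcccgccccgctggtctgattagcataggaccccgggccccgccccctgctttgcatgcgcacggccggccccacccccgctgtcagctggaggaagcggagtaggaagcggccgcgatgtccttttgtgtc
TFAM and STK11 each held 1 match, TGCGGT on the strand of the gene, 133 and 33 bases before the start. None of the 10 member windows held TGTGGT, and no matches overlapped. In TFAM the KARPAS-45 summit stood 2 bp from the third base of the match and the PER-117 summit 35 bp from it. In STK11 the KARPAS-45 summit stood 27 bp from that base, and no PER-117 peak covered the match. Thus 2 of the 10 member windows held a motif, against 19.6% of all 34789 RefSeq promoters. The share was 27.7% of the 7270 promoters with a KARPAS-45 summit and 35.1% of the 3424 with a PER-117 summit. TFB1M, TFB2M and ESRRA had a summit without either motif in these 300 bases.

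In KARPAS-45 all 10 genes had a RUNX2 peak within 1 kb of either end of their span, and in PER-117 7 did. Over all protein-coding genes this held for 48.3% (KARPAS-45) and 32.5% (PER-117). With each list limited to its 5000 strongest peaks, the counts were 2 for KARPAS-45 and 3 for PER-117, so KARPAS-45 no longer had the higher count. That limit keeps 5000 of 42911 KARPAS-45 peaks and 5000 of 21027 PER-117 peaks. The share of all genes at this limit was not computed. Bound in both lines were PPARGC1B, ESRRA, TFAM, TFB1M, TFB2M, PRKAA1 and CPT1A, 7 of 10 against 29.2% of all genes. PPARGC1A, NRF1 and STK11 were bound at an end in KARPAS-45 and not in PER-117 (3 genes, against 19.2% of all genes), and no member was bound in PER-117 alone (against 3.36%). H3K27ac lay at a gene end of 9 of 10 members in each line, all but PPARGC1A, against 61% of all genes for KARPAS-45, 55.5% for PER-117 and 51.9% for both. Of these 9 acetylated members, 9 had gene-end RUNX2 in KARPAS-45 against 7 in PER-117. For all 10357 genes with both-line acetylation the shares were 81.4% and 59.1%, nearer to the members than those of all genes. At an annotated start RUNX2 was called for 8 of 9 members for KARPAS-45 and 6 of 9 for PER-117, against 50.5% and 34.4% of the 15811 genes with an entry. H3K27ac was called there for 7 of 9 in each line, against 61.6% and 57.1%.

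**Figure D1:**
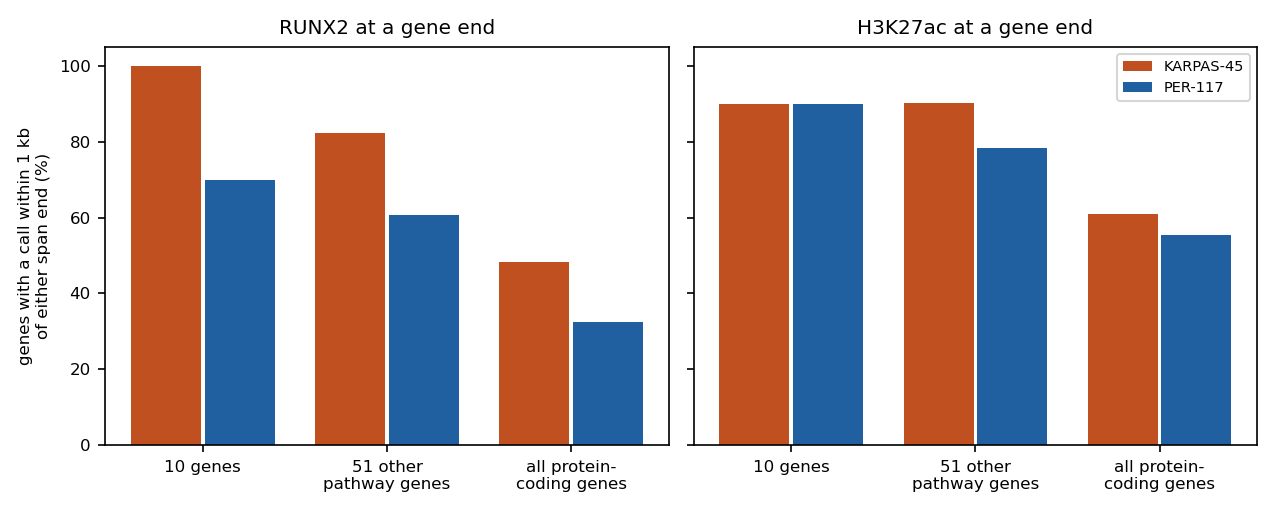
Share of genes (%) with a RUNX2 peak (left) or an H3K27ac region (right) within 1 kb of either end of the span, for the 10 genes, 51 other genes of the same pathways and all 19970 protein-coding genes, with KARPAS-45 and PER-117 side by side. The RUNX2 share of the 10 genes is 100% and 70%, above the 48.3% and 32.5% of all genes, while the acetylated share is 90% in both lines.

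TFAM, which packages mitochondrial DNA and starts its transcription, carried the strongest gene-end peak of the group in each line. The fold enrichment, the authors' own value for height over background, was 43.2 in KARPAS-45 against 27.2 in PER-117, at or above 99.3% and 98.9% of the lists. The peak was 897 bp wide in KARPAS-45 against 884 bp in PER-117, with the summit 133 and 166 bp before the start. TFAM was the single member with a gene-end peak in the strongest 5% of the KARPAS-45 list, of the PER-117 list or of both, against 2.22%, 1.3% and 0.686% of all genes, the last being 137 genes. That limit was chosen after the values were seen. Fold enrichments rank peaks within a list and do not compare the lines. In KARPAS-45 the TFAM window (chromosome 10, gene span 58385410 to 58399220) held no other RUNX2 peak and no other H3K27ac region. PER-117 had 1 further weak peak, of 4.72, 1165 bp before the start and outside H3K27ac. The H3K27ac region over the start was 2108 bp wide in KARPAS-45 against 1471 bp in PER-117. TFAM combined the highest gene-end RUNX2 rank of the 10 genes with the smallest acetylated share of a window among the 9 acetylated genes, 3.3% in KARPAS-45 against 2.31% in PER-117.

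The methyltransferase-related factors TFB1M and TFB2M were bound at their starts in both lines, with lower ranks. TFB2M is the partner of TFAM in starting mitochondrial transcription, and TFB1M methylates mitochondrial ribosomal RNA. The TFB1M start peak had a fold enrichment of 10.6 in KARPAS-45 against 9.33 in PER-117, at or above 76.2% and 78.9% of the lists. A second shared site lay inside TFB1M, 46229 bp from the start by the KARPAS-45 summit, with 25.4 in KARPAS-45 (96%) against 8.09 in PER-117 (72.8%). It lies within CLDN20 as well, a claudin gene that overlaps TFB1M, and was outside H3K27ac in both lines. At TFB2M the start peak had 5.78 in KARPAS-45 against 3.09 in PER-117, at or above 43.1% and 3.69% of the lists. Its summit was 175 bp from the TFB2M start in KARPAS-45 against 197 bp in PER-117, and nearer still to the neighbour CNST, at 20 and 2 bp. In PER-117 CNST also held peaks of 6.4 and 9.32 that KARPAS-45 did not have.

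**Figure D2:**
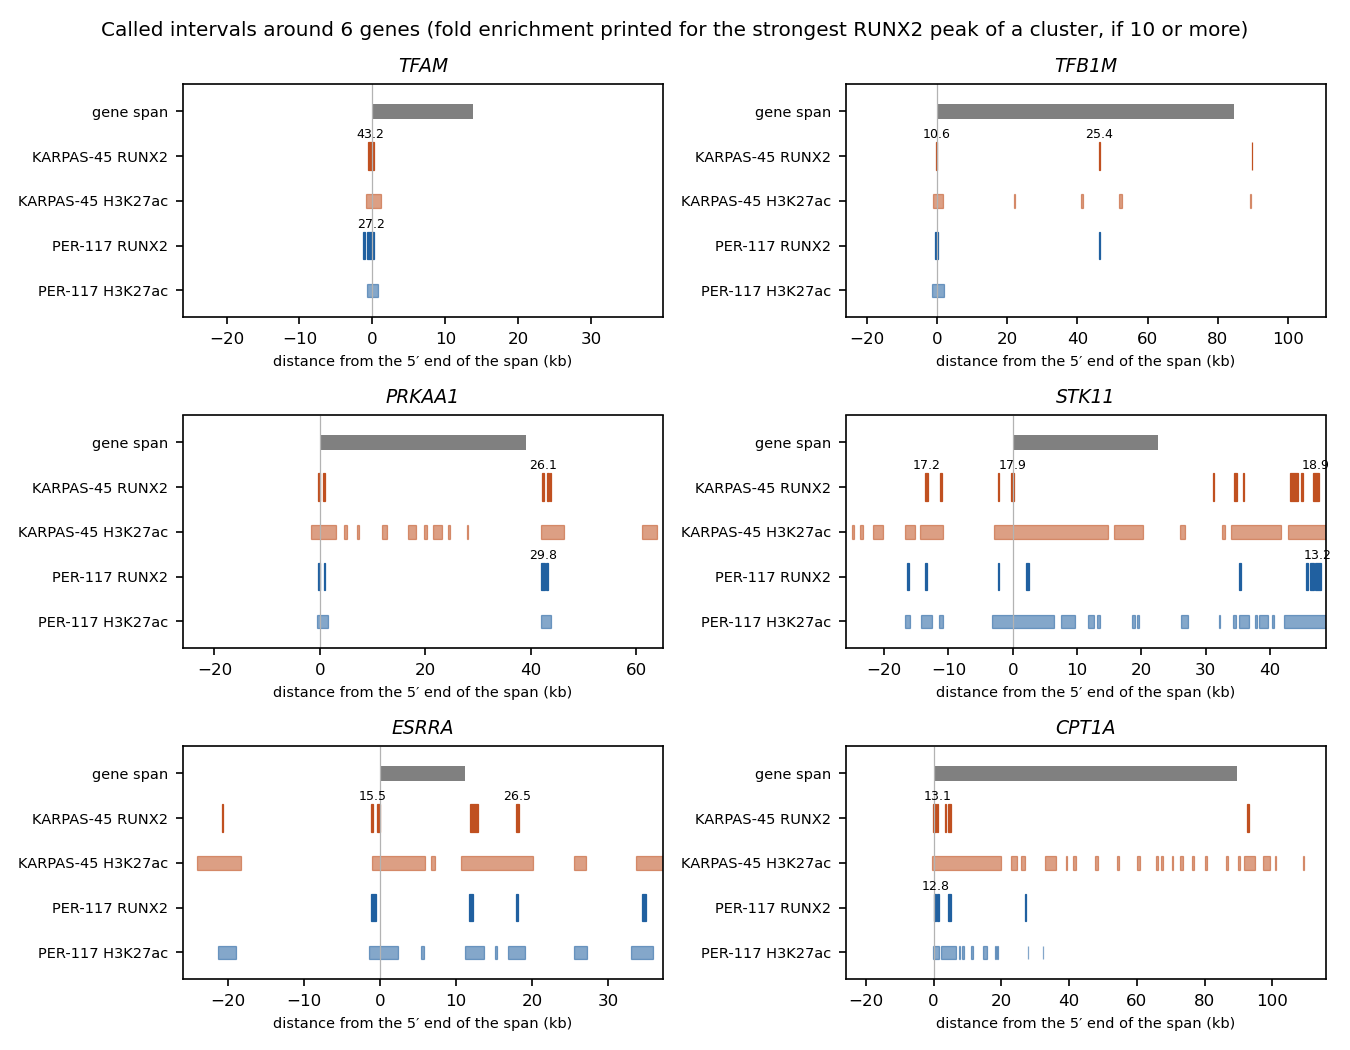
Called RUNX2 peaks (tall bars) and H3K27ac regions (short bars) of KARPAS-45 and PER-117 around 6 genes, by distance in kb from the 5′ end of the gene span (grey bar), with the fold enrichment printed above the strongest RUNX2 peak of a cluster where it is 10 or more. TFAM has a peak at its start (43.2 and 27.2) and almost nothing else, while the strongest peaks near PRKAA1 and STK11 lie beyond the gene.

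Among the coactivators, PPARGC1A (PGC-1α) was the exception of the group. Its 681 kb span (chromosome 4, 23792021 to 24472905) and flanks held no H3K27ac region in either line. KARPAS-45 had 2 RUNX2 peaks there, of 5.2 at the distal annotated start (at or above 34.9% of the list) and of 7.21 inside the gene, 293235 bp from that start, and PER-117 had none. Peaks were at 0.274 per 100 kb in KARPAS-45, the lowest of the 10 genes. Neither peak reached the other annotated start, at position 23881101. PPARGC1B (PGC-1β), on chromosome 5, was both bound and acetylated. Its gene-end H3K27ac region was weak in KARPAS-45, with 1.31, at or above 12.9% of the list. The lower span end of PPARGC1B (position 149730310) carried RUNX2 peaks of 6.97 and 8.02 in KARPAS-45, followed by 12.8 at 1443 bp inside. PER-117 had 1 peak there, of 6.05, which overlapped the KARPAS-45 peak of 8.02. A further shared peak, of 4.88 in KARPAS-45 against 5.6 in PER-117, lay 48439 bp inside by the KARPAS-45 summit and outside H3K27ac in both. The PPARGC1B start in the RefSeq table lies at 149771940, inside the span, and no RUNX2 peak or H3K27ac region came within 1 kb of it.

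The DNA-binding partners differed from each other. ESRRA, an orphan nuclear receptor on chromosome 11 (64305524 to 64316743), had a peak of 15.5 in KARPAS-45 against 8.51 in PER-117 about its start, with summits at -1034 and -1024 bp, the minus sign meaning before the start. Both summits lay inside the upstream neighbour CATSPERZ, 280 and 270 bp from its end. A second peak closer to the start, of 5.21 at 243 bp, was called in KARPAS-45 and not in PER-117. At the other end a peak of 7.69 in KARPAS-45 overlapped one of 6.48 in PER-117. Both summits lay inside the neighbour TRMT112. The nearest gene end was that of PRDX5, a mitochondrial and peroxisomal peroxidase, at 0 bp in KARPAS-45 and 640 bp in PER-117. The strongest peak of the window lay 1751 bp beyond PRDX5 in KARPAS-45 with 26.5 (96.5% of the list), where PER-117 had 2.35 (0.238%), so the site was among the strongest of its list in KARPAS-45 and among the weakest in PER-117. NRF1, on chromosome 7 (129611720 to 129757076), had a peak of 10.1 at the lower end of its span in KARPAS-45 (74.6%), and none within 1 kb of an end in PER-117. In both lines a peak lay deep in the gene, of 15.8 in KARPAS-45 against 5.45 in PER-117, and it was inside H3K27ac in KARPAS-45 but outside it in PER-117. PER-117 had further internal peaks of 4.79 and 3.2, both outside H3K27ac, the second 1177 bp from the upper end.

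The windows of PPARGC1B and NRF1 also hold microRNA genes, which RefSeq places at MIR378A inside PPARGC1B and at MIR182, MIR96 and MIR183 beyond the upper end of NRF1. MiR-378a is known from mouse work for a role in mitochondrial metabolism. The mature sequences are shown because RUNX2 or H3K27ac was called close to their genes in at least 1 line. Capitals mark the seed, bases 2 to 8, and no pair of the 4 shares the whole seed.
hsa-miR-378a-3p: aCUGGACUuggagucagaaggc
hsa-miR-182-5p: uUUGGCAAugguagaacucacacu
hsa-miR-96-5p: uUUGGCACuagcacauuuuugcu
hsa-miR-183-5p: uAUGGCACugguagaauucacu
The nearest RUNX2 peak to the MIR378A hairpin was 885 bp away in KARPAS-45, with 12.8, and 1582 bp away in PER-117, with 6.05. Its nearest H3K27ac region was 603 bp away in KARPAS-45 against 635 bp in PER-117. The MIR182 hairpin overlapped an H3K27ac region of KARPAS-45 with a fold enrichment of 1.31, and lay 371 bp from one of PER-117 with 2.65. The nearest RUNX2 peak to MIR182 was 2955 bp away in KARPAS-45, with 9.61, and 647 bp in PER-117, with 2.95. That PER-117 peak was a weak one, at or above 2.35% of its list. The nearest KARPAS-45 H3K27ac region was 187 bp from miR-96-5p and 415 bp from miR-183-5p. In PER-117 the nearest was 3513 and 3741 bp away. RUNX2 peaks were farther from these 2 sequences, 7311 and 7539 bp in KARPAS-45 and 3339 and 3567 bp in PER-117, than from MIR182.

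The AMPK branch showed weak peaks at PRKAA1 and a line difference at STK11. PRKAA1, the α1 catalytic subunit, had peaks of 4.01 and 4.01 about its start in KARPAS-45 and of 3.95 and 4.53 in PER-117, none above 30% of its list. All 4 overlapped a peak of the other line and lay in H3K27ac. The strong site of that window, of 26.1 in KARPAS-45 (96.3%) against 29.8 in PER-117 (99.3%), lay 80 and 91 bp from the end of TTC33, a neighbouring tetratricopeptide gene. STK11, on chromosome 19 (1205778 to 1228431), had a start peak of 17.9 in KARPAS-45, at or above 91% of the list, with its summit 58 bp before the start. PER-117 had no peak within 1 kb of either end. Its peak of 9.63 (80.4%) lay 2330 bp after the start, where KARPAS-45 had none, and the start itself was acetylated in both lines. With a window of 2.5 kb around the ends, STK11 and NRF1 also counted as bound in PER-117, for 9 genes in all. The share of all genes at that wider window was not computed. Upstream of STK11 a shared peak had 17.2 in KARPAS-45 (90.3%) against 4.71 in PER-117 (33.4%). The STK11 window was the densest of the 10, with 10 peaks in KARPAS-45 (13.8 per 100 kb) against 8 in PER-117 (11 per 100 kb). It includes the genes CBARP, ATP5F1D, a subunit of ATP synthase, and MIDN, and its strongest peaks, of 18.9 in KARPAS-45 against 13.2 in PER-117, lay inside MIDN.

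CPT1A, which loads long-chain fatty acids onto carnitine at the outer mitochondrial membrane, had a cluster of peaks within 5 kb of its start (chromosome 11, position 68844277) in both lines. In KARPAS-45 the peaks reaching within 1 kb had 13.1 (83.7%) and 8.98 (69.3%), and in PER-117 5.22 (42.8%) and 12.8 (89.1%). The order of the pair was reversed: the summit farther inside the gene, at 1148 bp in KARPAS-45 against 1108 bp in PER-117, was the higher in KARPAS-45, and the one at 352 and 399 bp was the higher in PER-117. Another shared peak stood at 4864 and 4813 bp, with 10.7 in KARPAS-45 against 6.89 in PER-117. In KARPAS-45 a single H3K27ac region of 20457 bp covered this whole cluster. In PER-117 2 regions did, the one over the start 1938 bp wide. The KARPAS-45 peak of 9.21 at the other end of the window lay 64 bp from TESMIN and had no PER-117 partner.

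**Figure D3:**
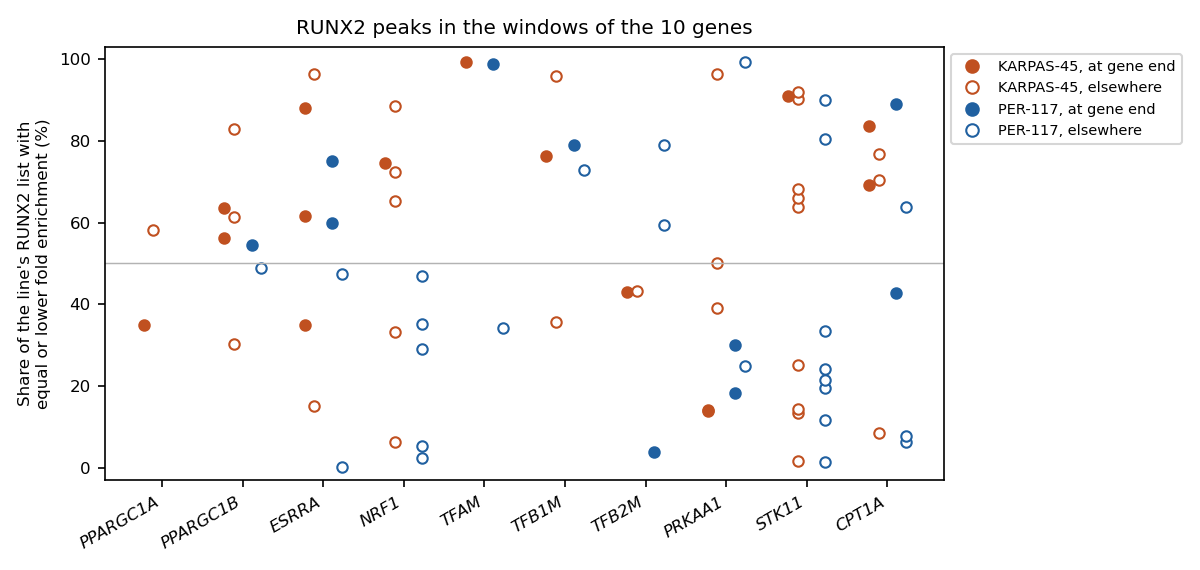
Each RUNX2 peak in the windows of the 10 genes, placed by the share (%) of its own line's list with an equal or lower fold enrichment. Orange points are KARPAS-45 and blue points PER-117, filled where the peak lies within 1 kb of a gene end and open elsewhere, with a line at 50%. TFAM stands at 99.3% and 98.9%, and the open points at 96.3% and 99.3% over PRKAA1 belong to the site at TTC33.

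Across the 10 windows, the median number of RUNX2 peaks was 5 for KARPAS-45 and 3.5 for PER-117, against 2 and 1 over all protein-coding genes. Genes acetylated at an end in both lines had medians of 4 and 2. Per 100 kb of window the members had medians of 2.94 and 3.35 peaks, against 2.61 and 1.26 for all genes and 3.91 and 2.04 for the acetylated ones. By density the members thus stood below the acetylated genes in KARPAS-45 and above them in PER-117. Of the member peaks, 27 of 44 in KARPAS-45 against 13 of 35 in PER-117 stood in the upper 50% of their list. The protein-coding gene end nearest to the summit belonged to the member for 28 of 44 KARPAS-45 peaks and 20 of 35 PER-117 peaks, and to a neighbour for the rest. Between the lines, 21 of 44 KARPAS-45 peaks (47.7%) overlapped a PER-117 peak, and 23 of 35 PER-117 peaks (65.7%) overlapped a KARPAS-45 peak, against 31.2% and 63.6% of the whole lists. Summits lay in H3K27ac of their own line for 36 of 44 KARPAS-45 peaks (81.8%) and 27 of 35 PER-117 peaks (77.1%), against 65.2% and 75.6% of all summits. The PER-117 shares are close to those of the whole list. The 23 peaks called in KARPAS-45 alone lay in KARPAS-45 H3K27ac at 17 sites and in PER-117 H3K27ac at 14. The 12 called in PER-117 alone lay in KARPAS-45 H3K27ac at 7 sites and in PER-117 H3K27ac at 7. The same shares over all peaks called in only KARPAS-45 or only PER-117 were not computed.

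Acetylation at the gene ends was present in both lines but ranked differently within the lists. The strongest gene-end H3K27ac region of the 9 acetylated members had fold enrichments from 1.31 to 6.6 in KARPAS-45 (median 2.02) and from 5.56 to 13.7 in PER-117 (median 7.47). In KARPAS-45 these regions stood at or above 12.9% to 86.3% of the list, with a median of 42.3%, and in PER-117 at or above 83.1% to 99.6%, with a median of 91.6%. The gene-end regions of all genes were not ranked, so these ranks are not shown to be particular to the members. For ESRRA the KARPAS-45 region was the one at the 3′ end of the gene, with 1.9. NRF1 had 1.72 in KARPAS-45 against 13.7 in PER-117, and PPARGC1B 1.31 and 12.7. TFB1M had 6.6 in KARPAS-45 against 7.47 in PER-117. In the KARPAS-45 list the fold of a region resembled that of the region before it on the chromosome (Spearman rho 0.752 over 63242 neighbouring pairs), and hardly in PER-117 (0.0518 over 53240 pairs). Neighbouring regions share a library and a stretch of chromosome, and the part of this feature of the KARPAS-45 list in the low ranks was not tested. The KARPAS-45 regions were wider, with a median of 4814 bp against 2328 bp in PER-117. A RUNX2 summit of the same line lay in 9 of the 9 KARPAS-45 regions and in 8 of the 9 PER-117 regions, all but that of NRF1. Over every region of the lists the share holding one was 29.7% (KARPAS-45) and 24.1% (PER-117). That comparison is not a like one, since the lists hold regions of any place, with median widths of 1270 and 816 bp. Among genes acetylated at an end in both lines, 81.4% (KARPAS-45) and 59.1% (PER-117) had gene-end RUNX2.

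The acetylated share of a window was highest at STK11 and ESRRA in both lines. STK11 had 59.6% in KARPAS-45 against 38.7% in PER-117, and ESRRA 44% and 26.7%, both in windows with several other genes. CPT1A had 28.6% in KARPAS-45 against 7.36% in PER-117, NRF1 22.8% and 4.09%, and PRKAA1 20.9% and 4.51%. TFB2M went the other way, with 7.41% in KARPAS-45 against 23.1% in PER-117, where 6 of the 7 regions had their midpoint in CNST. PPARGC1B, at 4.36% and 4.91%, TFB1M, at 3.44% and 2.61%, and TFAM were low in both lines. The whole KARPAS-45 list covers 167 Mb and the PER-117 list 76.2 Mb, and the part of this gap in the member values was not tested.

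**Figure D4:**
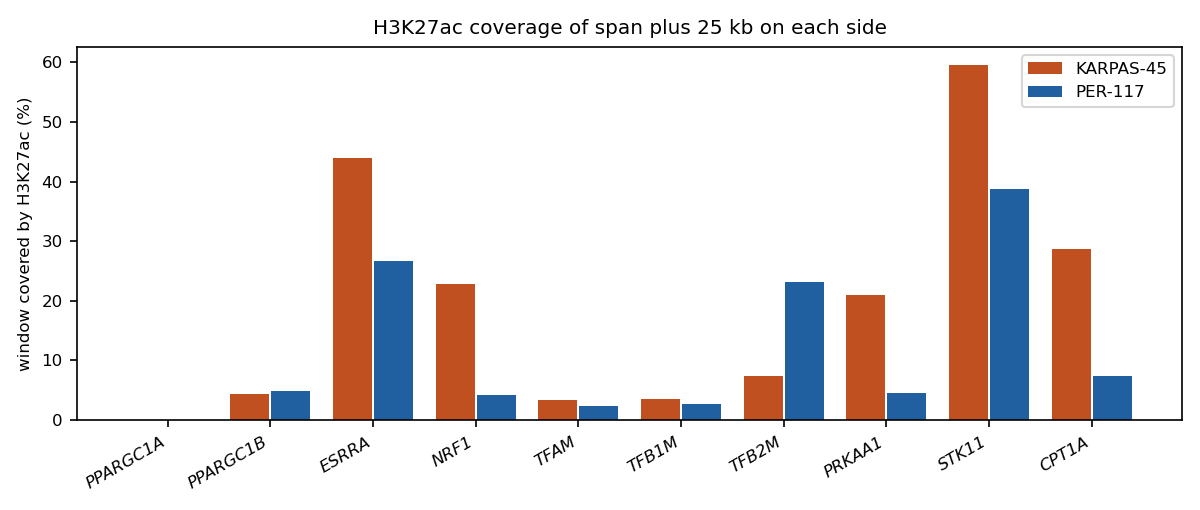
Share (%) of each gene's window, its span plus 25 kb on each side, covered by H3K27ac regions in KARPAS-45 and PER-117. STK11 and ESRRA are the highest in both lines, PPARGC1A is at 0, and TFB2M (7.41% and 23.1%) and PPARGC1B (4.36% and 4.91%) are higher in PER-117.

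Of 51 further genes of these pathways, 42 (82.4%) were bound at an end in KARPAS-45, against 31 (60.8%) in PER-117, with 29 bound in both lines and 7 in neither. These shares lie above the 48.3% and 32.5% of all protein-coding genes and close to the 81.4% and 59.1% of genes acetylated at an end in both lines. Gene-end H3K27ac was present at 46 (90.2%) in KARPAS-45 against 40 (78.4%) in PER-117, where all genes stood at 61% and 55.5%. Of 14 AMPK subunits and regulators, 12 were bound in KARPAS-45, against 10 in PER-117. FLCN, the folliculin tumor suppressor that acts with FNIP1 in nutrient sensing, had 39.6 and 39.1, in the strongest 5% of both lists. The regulatory subunit PRKAG1 had 15.2 and 16.9, and the LKB1 partner STRADB 15.6 and 16.6, although that peak was nearest to TRAK2. CAMKK2, a calcium-dependent AMPK kinase, and the subunit PRKAG2 were bound at an end in KARPAS-45 (5.35 and 4.17) and not in PER-117. Of 12 AMPK substrates and effectors, 10 were bound in KARPAS-45, against 7 in PER-117. They were led by MFF, which recruits DRP1 for mitochondrial fission, with 37.9 and 30.3, and RPTOR, the mTORC1 scaffold, had 5.52 and 6.4. ACACA and ACACB, the acetyl-CoA carboxylases whose product inhibits CPT1A, were bound in KARPAS-45 (4.38 and 10.0) and not in PER-117. SREBF1, a lipid synthesis regulator, was bound (3.33) in PER-117 but had no gene-end peak in KARPAS-45.

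Of 14 biogenesis regulators, 12 (85.7%) were bound in KARPAS-45 against 5 (35.7%) in PER-117. Over all protein-coding genes the shares were 48.3% and 32.5%, so the PER-117 share was close to that of all genes. Gene-end H3K27ac was present at 12 (85.7%) in KARPAS-45 against 9 (64.3%) in PER-117, where all genes stood at 61% and 55.5%. GABPB1, a subunit of the ETS factor NRF-2 that binds with GABPA at genes of the respiratory chain, had 32.9 in KARPAS-45 against 36.8 in PER-117. The deacetylase SIRT1 had 16.3 and 9.1 and the cAMP response factor CREB1 8.02 and 9.03, while PERM1 (9.61, nearest to PLEKHN1) and PPARA (4.18) were among 7 genes bound in KARPAS-45 and not in PER-117. Of the 11 genes of mitochondrial genome expression and the carnitine shuttle, 8 (72.7%) were bound in KARPAS-45 against 9 (81.8%) in PER-117. POLRMT, the mitochondrial RNA polymerase that works with TFAM and TFB2M, had 22.8 and 8.4, the DNA polymerase POLG 14.8 and 6.1, and the carnitine transferase CPT2 7.81 and 11.3. TWNK, the mitochondrial helicase, was bound (3.51) in PER-117 but had no gene-end peak in KARPAS-45. FLCN, MFF and GABPB1 were the 3 of these 51 genes with a gene-end peak in the strongest 5% of both lists. The share of all genes was 0.686%, and the 5% limit was chosen after the values were seen.

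The T-lineage label of the lines was checked on H3K27ac. Gene-end acetylation was present at 12 of 12 T-lineage markers in KARPAS-45 against 11 of 12 in PER-117, where CD5 lacked it. Over all protein-coding genes the shares were 61% and 55.5%. It was present at 0 of 4 myeloid and 0 of 4 non-blood markers in each line. Among B-lineage markers, CD79A was acetylated at an end in both lines, and MS4A1 and PAX5 in neither.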

How the data were processed

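Per the labels' protocols, cells were fixed in 1.1% formaldehyde for 10 min, and fragments of 200 to 300 bp were pulled down overnight using 10 µg of antibody. STAR 2.4.2a, MACS2 and hg38 appear in the submitters' processing notes, with settings not given in the sources used here. Of 7 samples, 3 are inputs and were not analysed here. The authors deposited 1 peak list per ChIP library, with a display score, a fold enrichment (a linear ratio), a −log10 p, a −log10 q and, for RUNX2, a summit. Read depth is unknown, so a missing peak was not called at an unknown depth, and no interval can be given. The smallest −log10 q in the deposited H3K27ac lists was 0.431 for KARPAS-45 and 1.01 for PER-117, and 1.31 and 1.3 in the RUNX2 lists.

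Lines for several summits of 1 RUNX2 peak were joined, keeping the highest. Only chromosomes 1 to 22 and X were used. Overlap meant 1 bp or more, summits within H3K27ac regions counted as acetylated, and a gene end was either end of a RefSeq span (GRCh38.p14) with 1 kb on each side. Exons were not resolved. No statistical test was made. The members, lists and rule for named genes were chosen with earlier results of these data known. The rule named all members and, from each pathway list, up to 3 genes bound in both lines and up to 2 per line bound in that line alone. Some genes of the lists are not reported here by name. Python 3.11.15, numpy 2.4.6, pandas 2.3.3 and matplotlib 3.10.9 were used, and the overlap code was tested on simulated data, with 0 intervals called differently from a direct count in 40 draws.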

Additional observations from a re-analysis of the deposited data

How the results depend on the processing

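Of 54 counts under alternative settings, 38 stayed within 1.5 times the reported count and 16 did not. Keeping RUNX2 calls at a −log10 q of at least 10 left 29 peaks for KARPAS-45 and 13 for PER-117 in the windows. Of these, 11 and 11 overlapped the other line, and 26 KARPAS-45 and 12 PER-117 summits lay in H3K27ac. Gene-end binding then held for 8 genes in KARPAS-45, losing PPARGC1A and PRKAA1, and 5 in PER-117, losing TFB2M and PRKAA1. The share of all genes at that −log10 q was not computed. When each RUNX2 list was limited to its top 5000 by fold, gene-end binding held for 2 genes in KARPAS-45 (TFAM and STK11). In PER-117 it held for 3 (TFAM, TFB1M and CPT1A), so KARPAS-45 no longer had the higher count. The windows then held 8 and 7 peaks, 7 and 7 of them in H3K27ac and 3 and 3 shared, and 6 members had any peak in each line. When KARPAS-45 acetylation was limited to its widest regions, 5379 in number, matching PER-117 in total length, 4 members were acetylated at an end in KARPAS-45 (ESRRA, NRF1, STK11 and CPT1A) and 18 KARPAS-45 summits lay in H3K27ac. Narrow regions such as that of TFAM drop out there by construction. Flanks of 10 or 50 kb, a gene-end window of 2.5 kb, H3K27ac regions of −log10 q of 2 or more, the wider regions and an overlap of 50% moved no count by over 1.5 times. With H3K27ac regions of −log10 q of 2 or more, 8 members were acetylated at an end in KARPAS-45, losing PPARGC1B. No paired analysis was possible because each line has 1 library per antibody. Read depth is unknown, so a peak missing from the shorter PER-117 list is one that was not called, not one shown to be absent.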
